A study of Rattus norvegicus with 8 samples.

Results

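The Gadd45 family holds 3 genes, Gadd45a, Gadd45b and Gadd45g, which were chosen by gene symbol out of 27489 gene names on a rat expression array and followed in mature hepatocytes (MHs), control small hepatocyte-like progenitor cells (SHPCs) and SHPCs of livers given bone marrow mesenchymal cells (BM-MCs). The family was proposed with results of these samples already known. Which values led to that choice is not recorded, so the differences of the 3 genes are given as a description, without a test. The array carries 4 probes for the family on 14 spots, and all 4 probes were well above background on each of the 7 arrays with complete marks.

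Gadd45 proteins are small, acidic, mostly nuclear proteins without enzyme activity of their own, which are induced by growth arrest, DNA damage and other stresses. They act by binding: to Map3k4, which they activate upstream of p38 and JNK, to the Cdk1-cyclin B1 complex at the G2/M transition, to Pcna and p21, and to DNA repair factors that take part in active demethylation. Each gene has its own inducers. Gadd45a is a target of FoxO factors, Gadd45b of NF-κB and TGF-β and, in liver, of the nuclear receptor CAR, and Gadd45g of cytokines. In liver, Gadd45b is an immediate-early gene of regeneration after partial hepatectomy.

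The samples were cut out of F344 rat livers by laser microdissection (LMD), and 100 ng of total RNA from each was labelled and hybridised to a 1-colour array. Per the methods, female rats received 30 mg/kg retrorsine per injection, an alkaloid that blocks hepatocyte division, and then partial hepatectomy, so that all 3 groups come from livers so treated. SHPC clusters were taken from control recipients (3 samples) or from recipients given cultured BM-MCs of male donors through the spleen (3 samples), with livers examined 14 days later, and MHs were taken from control recipients (2 samples). On the recipients' DPPIV status the labels (positive) and the methods (negative) differ, and no age is stated for them. Samples are not linked to animals in either, so p-values measure only the spread between these samples, which may be technical. LMD takes tissue and not sorted cells, so fewer cells of a type and less RNA per cell cannot be told apart.

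Between 57.0% and 61.5% of the spots of an array were well above background and none was saturated. For the second control SHPC sample the scanner file breaks off early, and its signals came from the deposited value table without marks. Both MH samples and control SHPC replicates 1 and 2 lay on the first set of 4 arrays of the slide, and control SHPC replicate 3 and all BM-MC samples on the second set. Of the hepatocyte markers 8 of 8 passed the filter, and the log2 of their summed linear levels lay between 9.43 and 9.87 in all 8 samples. The brightest markers set such a sum, and single markers differed. Apoa1, Cps1 and Tat had lower means in MHs (5.81, 0.23 and 2.45) than in controls (6.54, 1.15 and 3.21), whereas Hnf4a was higher (3.86 against 3.67). Levels are log2 signals relative to the 75th percentile of their array over its spots, so a level of 0 is that percentile. No probe's level is set against that of another.

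Each probe is 60 bases long, and a stretch of 30 bases of each is shown because the 4 sequences decide which family member is measured. Capitals mark the polyadenylation hexamer.
Gadd45a, bases 1 to 30 of its probe: aacggtgattccccgaacggtgatggcatc
Gadd45b, bases 1 to 30 of its probe: aaccagtgggtcccctatatctctctggag
Gadd45g, bases 31 to 60 of the 10-spot probe: atttcacAATAAActtattgaaacaaaaaa
Gadd45g, bases 1 to 30 of the single-spot probe: atggaaggaccctgccttggagaagctcag
The longest run of bases that probes of different members share is 6. In the array's annotation, built on rn4 per the file headers, the Gadd45a probe A_44_P216395 lies at chr4:96650454-96650513 and has 1 spot. The Gadd45b probe A_43_P16529 has 2 spots, and the file lists only the part from 10289049 to 10289076 on chromosome 7. For Gadd45g, the 10-spot probe A_43_P15687 lies at chr17:19230893-19230949 and starts at base 1005 of its transcript, and the single-spot probe A_64_P098255 lies at chr17:19231421-19231480 and starts at base 474 of a second transcript record. All lie on the minus strand. Exon and UTR positions were not assigned, since no annotation of rn4 was used here.

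The 250 bases before the start of each gene are shown so that the letters the family shares there can be compared. They come from RefSeq (GRCr8), where all 3 genes matched, at chr4:97486800-97487049 for Gadd45a, chr7:9430719-9430968 for Gadd45b and chr17:13530352-13530601 for Gadd45g, each on the minus strand and written 5′ to 3′. Capitals mark matches on either strand to the octamer ATTTGCAT (the Pou2f1 motif), CCAAT (the NF-Y box), CACGTG (the E-box of the Myc family), TGACTCA (AP-1), TGACGTCA (the cAMP response element) and TATAAA (the TATA box), none of which overlapped another here.
Gadd45a: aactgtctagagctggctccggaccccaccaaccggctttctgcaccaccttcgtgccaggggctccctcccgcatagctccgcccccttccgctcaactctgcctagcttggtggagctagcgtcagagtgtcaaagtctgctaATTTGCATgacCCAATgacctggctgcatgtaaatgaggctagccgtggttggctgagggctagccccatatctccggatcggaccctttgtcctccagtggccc
Gadd45b: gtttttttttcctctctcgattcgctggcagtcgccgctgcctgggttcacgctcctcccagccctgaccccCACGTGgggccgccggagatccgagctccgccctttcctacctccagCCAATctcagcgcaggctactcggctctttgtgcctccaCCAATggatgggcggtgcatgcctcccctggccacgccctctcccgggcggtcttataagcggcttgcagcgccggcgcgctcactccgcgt
Gadd45g: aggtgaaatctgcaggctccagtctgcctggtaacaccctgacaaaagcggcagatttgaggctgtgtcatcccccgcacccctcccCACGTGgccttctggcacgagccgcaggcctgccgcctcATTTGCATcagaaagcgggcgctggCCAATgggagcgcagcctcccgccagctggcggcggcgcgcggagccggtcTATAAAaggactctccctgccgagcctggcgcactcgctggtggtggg
The octamer stood once in Gadd45a, 105 bases before the start, and once in Gadd45g, 124 bases before it, and it occurs in 1.56% of the 33469 windows of this length. Gadd45b had no octamer and 2 CCAAT boxes, at 131 and 92 bases, where Gadd45a and Gadd45g had 1 each, at 94 and 99 bases; 34.0% of windows hold one. An E-box stood in Gadd45b at 178 bases and in Gadd45g at 163 bases (5.59% of windows), and Gadd45g alone of the 3 had TATAAA, at 48 bases (12.9% of windows). No AP-1 letters (4.05% of windows) or cAMP response element (1.59%) were found. A match is a run of letters and not a bound site.

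Gadd45g was the family member that stood apart in SHPCs of livers given BM-MCs. On its 10-spot probe it read 2.23, 2.33 and 2.001 in SHPCs with BM-MCs replicates 1 to 3, 0.85, 1.08 and 0.80 in control SHPCs, and 1.32 and 1.37 in MHs. The 3 groups did not overlap: SHPCs with BM-MCs were highest, MHs in the middle and control SHPCs lowest. The means were 2.19 ± 0.17 (SD, n = 3) with BM-MCs, 1.34 ± 0.033 (SD, n = 2) in MHs and 0.91 ± 0.15 (SD, n = 3) in controls, so each step of the order exceeded the spread within the groups.

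The log2 difference of Gadd45g with BM-MCs over control SHPCs was 1.28 (standard error 0.14), or 2.43-fold on the linear scale. Against MHs, SHPCs with BM-MCs were higher by 0.84 (standard error 0.15), or 1.79-fold. MHs in turn were 0.44 above control SHPCs (standard error 0.15), or 1.35-fold. The last was the smallest step, with the lower MH sample at 1.32 and the highest control at 1.08.

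The single-spot Gadd45g probe gave the same order. It read 0.25, -0.02 and -0.27 in SHPCs with BM-MCs, -0.85 and -0.77 in MHs, and -1.09, -0.93 and -1.06 in control SHPCs, with no overlap between groups. Its log2 difference was 1.01 (standard error 0.16) between SHPCs with BM-MCs and controls, or 2.01-fold, and 0.79 (standard error 0.17) against MHs. Between MHs and controls it was 0.22 (standard error 0.17), a step of about 1 standard error. Over the 8 samples the 2 probes correlated at Pearson r = 0.97, given as a description of 2 probes of 1 gene in the same RNA.

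**Figure D1:**
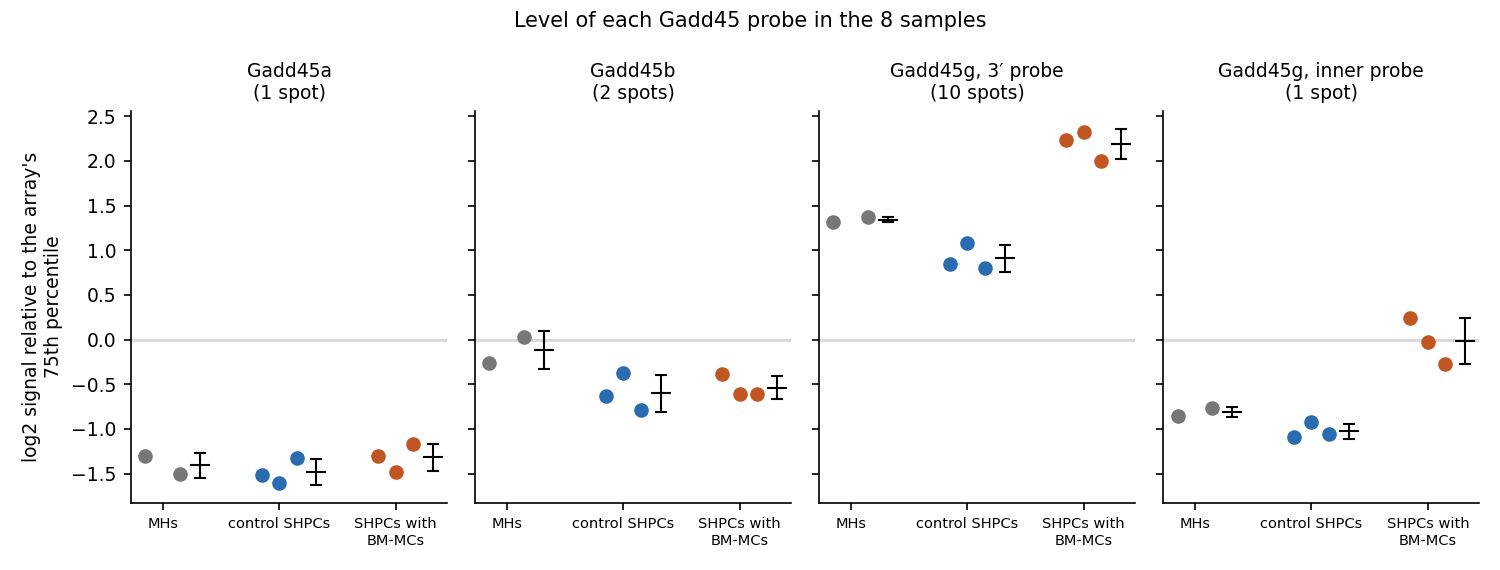
Level of the 4 Gadd45 probes in each of the 8 samples, as log2 signal relative to the array's 75th percentile; points are samples and bars the group mean ± SD. On both Gadd45g probes the 3 SHPC samples with BM-MCs lie above all other samples, whereas the Gadd45a points of the 3 groups overlap.

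The 10 spots of the Gadd45g probe measured the same RNA on each array. Their SD ran from 0.028 to 0.066 on the log2 scale, below the SD between samples of the SHPC groups (0.17 and 0.15) but not below that of the 2 MH samples (0.033). Before any scaling, the used spots covered signals from 2054 to 2288 in control SHPC replicate 3, the lowest sample, and from 7942 to 8345 in BM-MC replicate 1, the highest. The lowest used spot of any BM-MC sample, 5086 in replicate 3, was above the highest used spot of any MH sample, 4628 in replicate 2. On 5 arrays 1 spot carried an outlier mark and was left out.

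**Figure D2:**
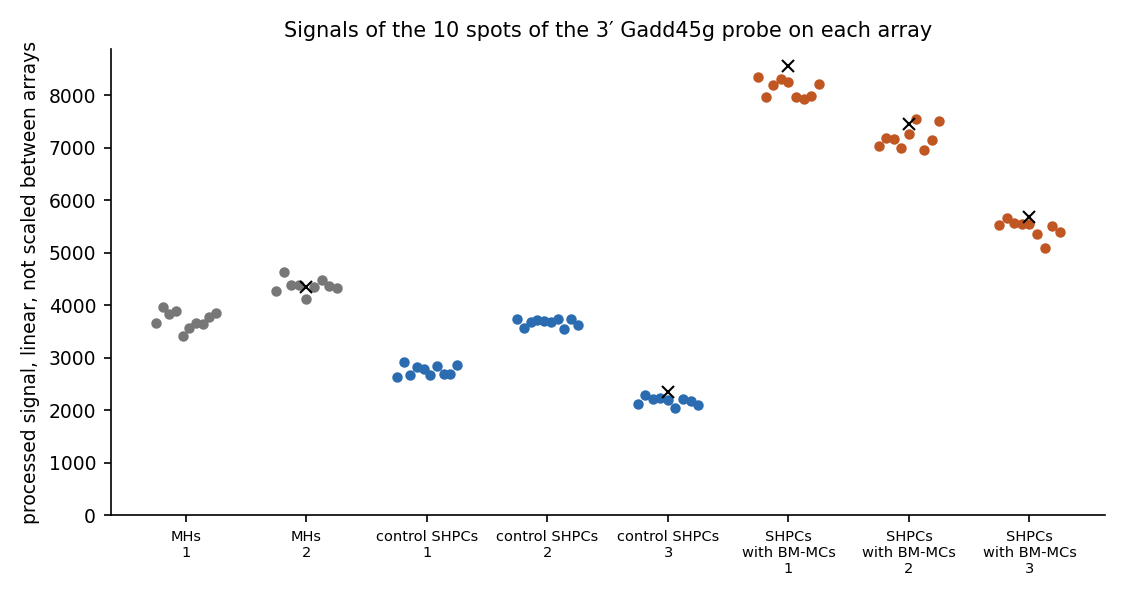
Processed signal, on a linear scale and not scaled between arrays, of the 10 spots of the Gadd45g probe on each array; crosses are spots marked as outliers and left out. Spots of 1 array lie close together, and all spots of the 3 BM-MC arrays lie above those of the other 5 arrays.

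Gadd45b was highest in MHs. It read -0.27 and 0.03 in MHs, -0.63, -0.38 and -0.79 in control SHPCs, and -0.39, -0.61 and -0.61 in SHPCs with BM-MCs. Both MH samples lay above all 6 SHPC samples, and the SHPC groups overlapped. The means were -0.12 ± 0.21 (SD, n = 2) in MHs, -0.60 ± 0.21 (SD, n = 3) in controls and -0.54 ± 0.13 (SD, n = 3) with BM-MCs.

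MHs exceeded control SHPCs in Gadd45b by 0.48 on the log2 scale (standard error 0.17), or 1.40-fold. SHPCs with BM-MCs differed from MHs by -0.42 (standard error 0.17), a ratio of 0.748, which came to -0.13 (standard error 0.27) when slide set was blocked and to -0.27 without MH replicate 2. The gap between the 2 groups was small against their spread, since the lower MH sample was at -0.27 and the highest SHPC sample, control replicate 2, at -0.38. The SHPC groups differed by 0.06 (standard error 0.15), within the spread of either group.

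Gadd45a did not separate the groups. It read -1.31 and -1.51 in MHs, -1.52, -1.61 and -1.33 in control SHPCs, and -1.30, -1.48 and -1.17 in SHPCs with BM-MCs. Group means of -1.41, -1.48 and -1.32 lay within 1 SD (0.14 to 0.16) or little more of each other. The log2 differences were 0.16 (standard error 0.14) between SHPCs with BM-MCs and controls, 0.08 (standard error 0.15) between MHs and controls and 0.09 (standard error 0.15) for BM-MC samples against MHs. At this precision a small difference in Gadd45a cannot be told from none.

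**Figure D3:**
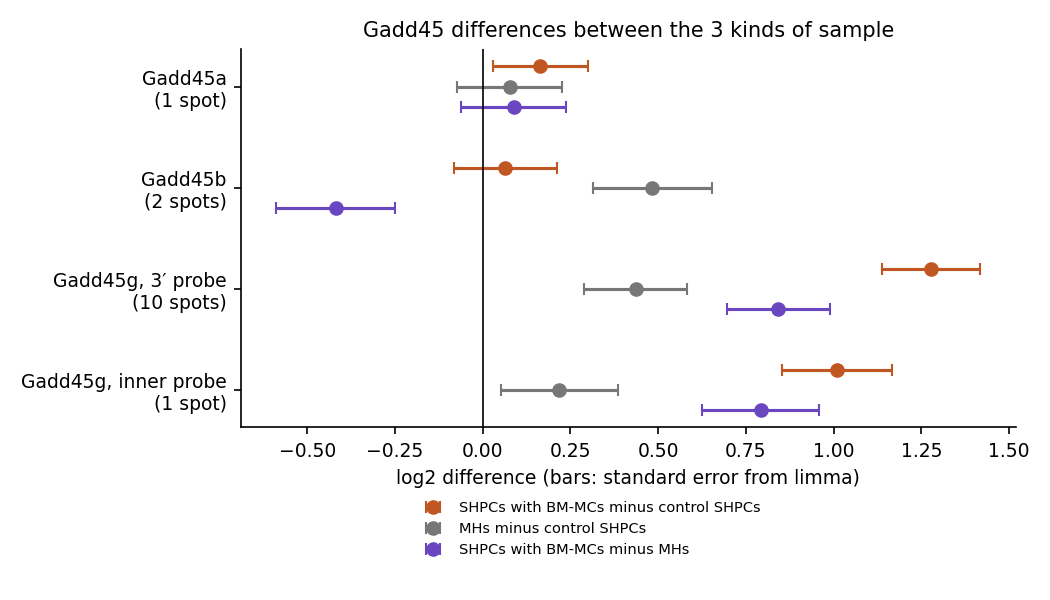
Log2 difference of each Gadd45 probe in the 3 comparisons, with the standard error from limma as bars. Gadd45g differs most between SHPCs with BM-MCs and controls (1.28 and 1.01 on its probes), Gadd45b lies on opposite sides of 0 for MHs against controls (0.48) and SHPCs with BM-MCs against MHs (-0.42), and the Gadd45a bars reach or nearly reach 0.

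Across all 23111 tested probes, limma with Benjamini-Hochberg adjustment at an adjusted p under 0.05 called 0.0216% higher and 0% lower with BM-MCs than in controls. For MHs relative to controls the shares were 0.216% higher and 0.917% lower, and for BM-MC samples relative to MHs 0.32% higher and 0.0173% lower. Of the 4 Gadd45 probes 0 were called in each comparison, and since the family was proposed with these results known, nothing is read from that count. Groups that do not overlap were common. With BM-MCs above controls, 2 of 4 Gadd45 probes did not overlap, against 13% of all probes with a value in each sample; for MHs above controls it was 3 of 4 against 22.7%; for SHPCs with BM-MCs above MHs it was 2 of 4 against 16%, and below MHs 1 of 4 against 16.3%. Each count of higher probes holds both probes of Gadd45g, which are 1 gene. The comparisons also share samples, so the counts are not independent.

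Markers of other cells differed between the groups. With BM-MCs and without, 4 of 8 marker lists did not overlap in the log2 of their summed linear levels. Erythroid markers (3 of 3 above the filter) ran from 3.31 to 3.78 with BM-MCs and from 4.35 to 6.11 in controls, and neutrophil markers (3 of 5, with Mpo and Csf3r below it) from -1.38 to -1.004 and from 0.22 to 0.67. Lymphocyte markers (1 of 5, with Cd3e, Cd2 and Cd79a among those below it) ran from -1.94 to -1.73 and from -1.69 to -1.59. Endothelial markers (5 of 6 listed, with no probe matched to Clec4g) ran the other way, from 3.88 to 4.02 with BM-MCs and from 3.67 to 3.86 in controls, a narrow gap. Kdr, the brightest of them, had means of 3.24 with BM-MCs and 2.92 in controls, whereas Lyve1 alone was lower with BM-MCs (0.48 against 0.55). Their part in the Gadd45g difference was not tested.

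Where MHs exceeded controls in Gadd45b and Gadd45g, Kupffer cell markers (7 of 7 above the filter) ran from 5.42 to 5.65 in MHs and from 4.56 to 5.11 in controls. Biliary markers (4 of 5, with Spp1 below the filter) ran from -1.86 to -1.50 in MHs, from -1.30 to -1.17 in controls and from -1.26 to -0.90 in SHPCs with BM-MCs, and lymphocyte markers from -2.13 to -1.98 in MHs. Their part in the Gadd45b and Gadd45g differences was not tested. Kupffer cell markers of SHPCs with BM-MCs, from 4.90 to 5.43, overlapped both other groups.

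The other genes of the pathway were followed in 4 lists of 76 genes in all, of which 71 were tested. Of the 71, 0 were called by limma in either direction with BM-MCs against controls. In MHs 1 was higher and 4 were lower than in controls, where limma called 0.216% and 0.917% of all probes. With BM-MCs 2 were higher and 0 lower than in MHs, beside 0.32% and 0.0173% of all probes.

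Of the kinases and targets through which Gadd45 proteins act, 17 of 20 were tested (Map2k6, Mapk11 and Dusp10 were too dim) and 0 were called by limma in any comparison; 4, 1 and 3 had an unadjusted p under 0.05 in SHPCs with BM-MCs against controls, MHs against controls and SHPCs with BM-MCs against MHs. Over all 23111 probes those shares were 16.6%, 19.2% and 13.3%. The list's median log2 differences were 0.19, 0.14 and 0.06, where those of all probes were 0.02, 0.03 and 0.0030. Jun, the AP-1 subunit phosphorylated by JNK, read 1.28, 1.29 and 0.55 with BM-MCs, -0.03, -0.12 and -0.53 in controls and 0.24 and -0.06 in MHs. Its log2 difference with BM-MCs was 1.26 against controls (adjusted p = 0.134 from limma) and 0.95 against MHs (adjusted p = 0.267 from limma). All 3 BM-MC samples were thus above the other 5, but the test was not passed. Such separation was common, with 13% of all probes above controls and 16% above MHs without overlap. Dusp1, the phosphatase that switches p38 and JNK off, had a difference of 0.85 against controls (adjusted p = 0.242 from limma). Mapk9, which encodes JNK2, differed by 0.61 and Map3k5 by -0.36 between MHs and controls (adjusted p = 0.165 and 0.363 from limma), and Mapkapk3, a p38 substrate, by 0.40 between SHPCs with BM-MCs and MHs (adjusted p = 0.306 from limma). Map3k4, the kinase that Gadd45 proteins bind, differed by 0.28, 0.30 and -0.02 in the 3 comparisons.

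The binding partners in cell cycle and DNA repair carried most of the calls. Of 15 genes 13 were tested (Tet1 was too dim, and no probe was matched to Ercc5), of which 3 were called lower in MHs than in controls and 2 higher with BM-MCs than in MHs, beside the 0.917% and 0.32% of all probes. Cyclin B1 (Ccnb1) read -5.32 and -5.03 in MHs, -2.01, -1.79 and -1.88 in control SHPCs, and -3.35, -2.90 and -2.53 in SHPCs with BM-MCs. Cdk1, its catalytic partner, read -2.50 and -2.09 in MHs, 0.83, 1.05 and 0.57 in controls, and -0.65, -0.23 and 0.27 with BM-MCs. For both, MHs were lowest, SHPCs with BM-MCs in between and controls highest, without overlap.

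Ccnb1 was lower in MHs than in controls (log2 difference -3.28, adjusted p = 0.0025 from limma), and Cdk1 likewise (-3.11, adjusted p = 0.0043 from limma). Aurka, a mitotic kinase that Gadd45a binds, was lower by a log2 difference of -1.28 (adjusted p = 0.020 from limma). Against MHs, SHPCs with BM-MCs were higher in Ccnb1 (2.25, adjusted p = 0.024 from limma) and in Cdk1 (2.09, adjusted p = 0.040 from limma). The differences of Ccnb1 and Aurka between the SHPC groups, -1.04 and -0.68, did not pass (adjusted p = 0.142 and 0.169 from limma). In that comparison 5 of 13 partners had an unadjusted p under 0.05, against 16.6% of all probes, and the list's median log2 difference was -0.15. The order of Ccnb1 and Cdk1 was not that of Gadd45g, which was highest with BM-MCs and lowest in controls.

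The calls on the partners rested on few samples and on the fit. Both calls against MHs were lost when slide set was blocked (all BM-MC samples lay in 1 set and both MH samples in the other). They were also lost with a replicate block, quantile normalization (alone or with normexp background correction on the 7 complete arrays), no filter or only both groups in the fit. With median scaling limma called Ccnb1 (2.05, adjusted p = 0.037) but not Cdk1 (1.89, adjusted p = 0.066). The differences themselves stayed positive in all 18 alternatives: with slide set blocked they were 2.23 for Ccnb1 and 2.46 for Cdk1. Over the alternatives they ran from 1.21 to 2.46 and from 1.86 to 2.46, with both low ends under normexp with quantile normalization on 7 arrays. Aurka, whose difference between MHs and controls ran from -1.41 to -0.92, was not called without scaling, without a filter, with the mean of its probes, with only both groups or with a replicate block. Without MH replicate 1, limma called Ccnb1 (-3.14, adjusted p = 0.041) but not Cdk1 or Aurka between MHs and controls, and without MH replicate 2 or control SHPC replicate 1 or 2 it called Ccnb1 and Cdk1 but not Aurka. For BM-MC samples against MHs, Ccnb1 and Cdk1 were called without BM-MC replicate 1, Ccnb1 alone without BM-MC replicate 3 (2.05, adjusted p = 0.031 from limma), and neither without BM-MC replicate 2 or either MH sample.

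Of the 22 transcription factors and other regulators of Gadd45 genes, all were tested. Nr1i3, which encodes CAR, the nuclear receptor that induces Gadd45b in liver, was higher in MHs than in controls (log2 difference 2.06, adjusted p = 0.049 from limma). It read 0.41 and -0.46 in MHs, -2.20, -1.81 and -2.24 in controls, and -0.63, -0.72 and -1.58 with BM-MCs, so that MHs were highest and controls lowest. Leaving out any 1 of the 5 samples ended the call. So did quantile normalization (alone or with normexp on 7 arrays), no filter, outlier spots kept, only both groups in the fit and either block. The Nr1i3 difference was 1.98 with slide set blocked and ran from 1.63 to 2.50 over 18 alternatives, with the ends set by leaving out either MH sample. Brca1, a repair protein that also acts on Gadd45a transcription, was lower in MHs by a log2 difference of -1.40 (adjusted p = 0.038 from limma), and of the 5 samples only control SHPC replicate 3 could be left out without ending that call. It was also lost under no scaling, median scaling, quantile normalization (alone or with normexp on 7 arrays), no filter, only both groups in the fit and the replicate block. The Brca1 difference ran from -1.57 to -0.91, the latter under normexp with quantile normalization.

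In the SHPC comparison 0 of 22 regulators were called by limma, and 5 of 22 had an unadjusted p under 0.05, against 16.6% of all probes. Myc differed by 0.93 and Nr1i3 by 1.11 (adjusted p = 0.171 and 0.180 from limma). Foxo1 differed by -0.36, Foxo3 by 0.09, Pou2f1 by 0.49 and the NF-Y subunit Nfya by -0.21 (adjusted p = 0.207, 0.897, 0.283 and 0.780 from limma). Between MHs and controls 2 of 22 had an unadjusted p under 0.05, against 19.2% of all probes. For SHPCs with BM-MCs against MHs 0 of 22 were called by limma and 5 had an unadjusted p under 0.05, against 13.3% of all probes. In that comparison Brca1 differed by 0.99 and Foxo1 by -0.40 (adjusted p = 0.199 and 0.254 from limma). The median log2 differences of the list were -0.04, 0.12 and -0.07 in the 3 comparisons.

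The 20 other stress-inducible growth-arrest genes were all tested, and 0 were called by limma in any comparison. With BM-MCs 17 of 20 had a positive difference from controls, against 52.6% of all probes, with a median of 0.33 against 0.02 over all probes, and 9 had an unadjusted p under 0.05, a share that was 16.6% over all probes. Tp53inp1, a stress-induced nuclear protein, read 0.24, -0.31 and 0.11 with BM-MCs, -1.66, -1.87 and -1.48 in controls and -1.35 and -0.37 in MHs. Gdf15, a stress-induced cytokine, read -2.17, -1.02 and -1.67 with BM-MCs, -3.94, -3.77 and -3.83 in controls and -1.37 and -2.75 in MHs. Their log2 differences from controls with BM-MCs were 1.68 and 2.23, with no overlap (as for 13% of all probes), and missed the threshold (adjusted p = 0.068 and 0.080 from limma). Without control SHPC replicate 3 both passed (1.78 and 2.24, adjusted p = 0.028 and 0.045 from limma), in a fit that called 2.29% of all probes.

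In MHs 15 of the 20 growth-arrest genes were above controls in mean, against 53.8% of all probes, with a median log2 difference of 0.35. Of these 20 genes 9 had an unadjusted p under 0.05, against 19.2% of all probes. Mdm2, a ubiquitin ligase, and Phlda3, an inhibitor of Akt, differed by 1.07 and 1.32 (adjusted p = 0.099 and 0.101 from limma). Both passed with an intensity trend (adjusted p = 0.039 and 0.043 from limma, in a fit that called 2.42% of all probes), and Phlda3 also with only both groups in the fit (adjusted p = 0.035 from limma, 1.25% of all probes called). With BM-MCs against MHs 10 were positive and 10 negative and 3 had an unadjusted p under 0.05, against 13.3% of all probes, with Phlda3 at -0.98 and Tp53inp1 at 0.87 (adjusted p = 0.287 and 0.319 from limma). Cdkn1a, which encodes p21, differed by 0.32, 1.20 and -0.87 in the 3 comparisons. Its mean was highest in MHs, as was that of Gadd45b, and for both genes the SHPC groups overlapped.

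**Figure D4:**
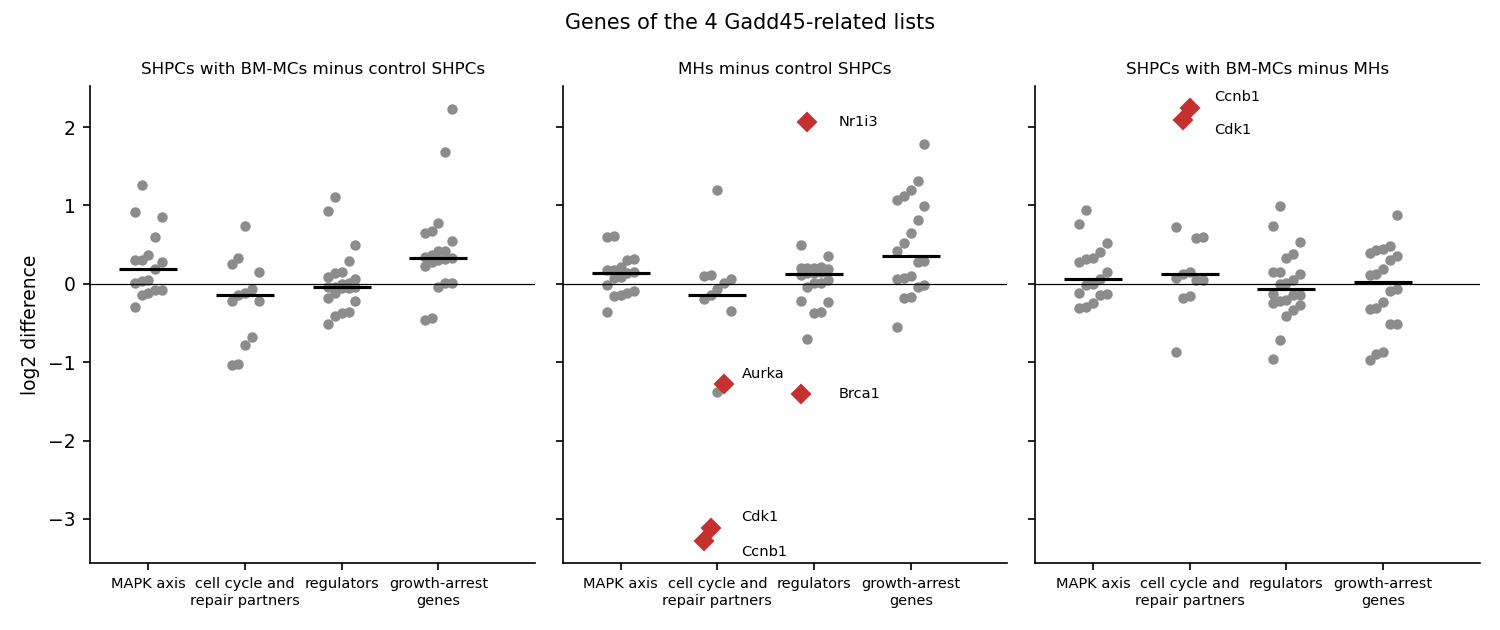
Log2 difference of each tested gene of the 4 Gadd45-related lists in the 3 comparisons; black lines are list medians and red diamonds genes called by limma at an adjusted p under 0.05. The calls are Ccnb1 and Cdk1 in both comparisons with MHs, and Aurka, Brca1 and Nr1i3 between MHs and control SHPCs.

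Patterns over the 8 samples were compared with those of 14638 genes by Pearson correlation, as a description over samples that share a slide and 3 groups. Gadd45g was most like Syde1 (0.98), Trim69 (0.98), Kif26a (0.97), Ccdc191 (0.97) and Med12 (0.96), and among the most opposite were Tmem97 (-0.96) and Ankrd24 (-0.96). Gadd45b was most like Gosr1, Hpgd, Slc38a9, Pkn2 and Polb (0.97 to 0.95) and most opposite to Zdhhc4, Rdm1 and Amdhd1 (-0.97 to -0.96). Gadd45a was most like Sgms2, Ypel2, C1H19orf84, Kcnj3 and Pbx2 (0.96 to 0.91) and most opposite to Tnks2, Reps1 and Tspo (-0.97 to -0.93). No gene was in more than 1 of these sets. Between members the correlations were 0.36 for Gadd45a with Gadd45g, 0.06 for Gadd45b with Gadd45g and -0.27 for Gadd45a with Gadd45b, so the 3 genes did not follow a common pattern over these samples.

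The Gadd45g differences kept their direction under the 11 processing alternatives and with each sample left out in turn. Between SHPCs with BM-MCs and controls the log2 difference stayed between 1.01 and 1.39 over 11 alternatives and between 1.21 and 1.37 with 1 sample left out. Within the second set of arrays, against control SHPC replicate 3, it was 1.39. Gadd45b stayed higher in MHs than in controls, between 0.39 and 0.57 over 10 alternatives and between 0.33 and 0.63 with 1 sample left out. The sign of the Gadd45a differences, and of the Gadd45b difference between the SHPC groups, changed under some settings.

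**Figure D5:**
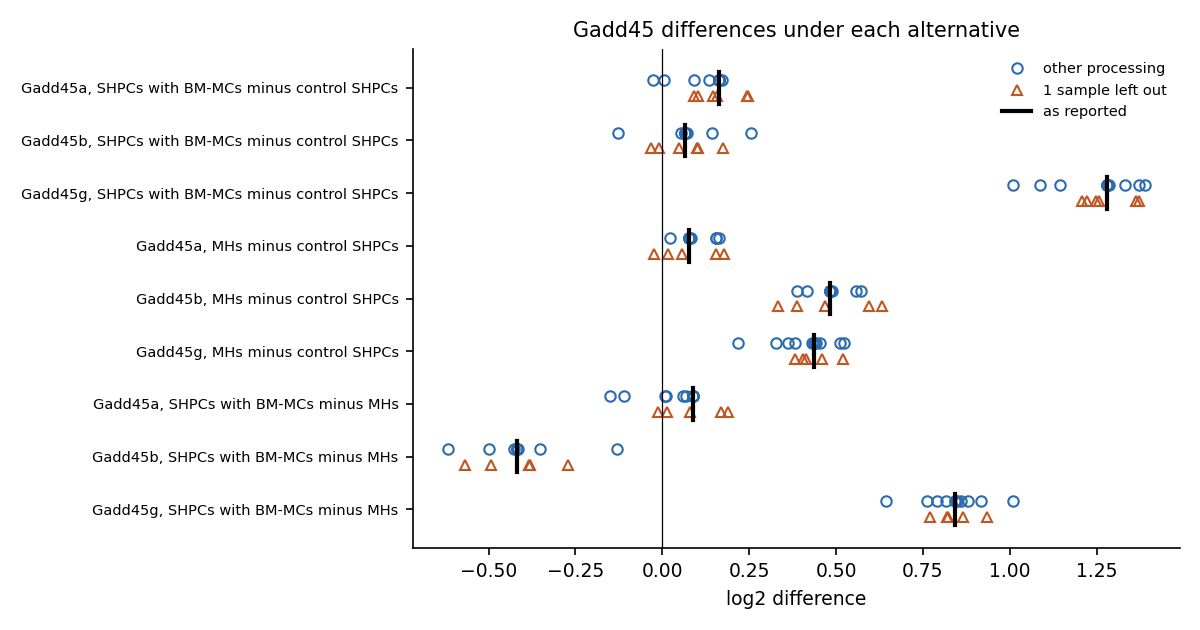
Log2 difference of each Gadd45 gene in the 3 comparisons as reported (black bar), under each other processing (circles) and with 1 sample left out (triangles). The Gadd45g values stay right of 0 in all 3 comparisons, whereas the values of Gadd45a, and of Gadd45b between SHPC groups, lie on both sides of it.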

How the data were processed

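RNA from LMD samples was hybridised to Agilent rat arrays (2 MH, 3 control SHPC and 3 BM-MC samples). The authors deposited, per the file headers, background-subtracted processed signals, an intensity made with Agilent Feature Extraction (10.7 per the labels), not scaled between arrays. Outlier spots were dropped, log2 intensity was set relative to each array's 75th percentile, and spots of a probe were averaged. Of 45598 probes, the 23111 that 3 or more of the 7 complete arrays marked as well above background entered the fits. Fits used limma (3.58.1, R 4.3.3), and p-values were adjusted over all fitted probes by the Benjamini-Hochberg method, with a threshold of 0.05. SHPCs with BM-MCs and control SHPCs were compared on 6 samples, and MHs within 1 fit of all 8. A gene was represented by its brightest tested probe. The fit was tested on simulated data. The members and lists were chosen with earlier results of these data known. All Gadd45 probes were named. Called list genes were named, at most 6 per list and comparison, or otherwise the 2 lowest by unadjusted p; other list genes were named for their role after their values were seen. Likeness named the 5 highest and 3 lowest correlations, passing over locus-style names; some items are not reported here. The number of arrays limits the precision. Alternatives covered scaling, background, dim and outlier spots, probe choice, samples fitted, blocks and left-out samples.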

Additional observations from a re-analysis of the deposited data

How the results depend on the processing

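Of the 141 values of the Gadd45 differences under alternatives, 127 moved by less than the SD between replicates, and Gadd45g kept its direction in each. Median scaling shifted the median of all probes by -0.19 between SHPCs with BM-MCs and controls and by -0.20 against MHs, which accounts for its Gadd45a, Gadd45b and Gadd45g differences of -0.027, -0.13 and 1.09 against controls and -0.11, -0.62 and 0.64 against MHs. With the slide set as a block (for comparisons with MHs chosen after seeing the data) the Gadd45a and Gadd45b differences were 0.0061 and 0.26 between SHPC groups, and those of Gadd45a, Gadd45b and Gadd45g were -0.15, -0.13 and 1.01 against MHs. The mean of both Gadd45g probes gave 0.33 between MHs and controls, and the other probe, also chosen later, gave 0.22, and 1.01 between SHPC groups. With 1 sample left out, Gadd45a ran from 0.09 to 0.25 between SHPC groups, from -0.02 (without MH replicate 1) to 0.18 between MHs and controls and from -0.01 (without MH replicate 2) to 0.19 between SHPCs with BM-MCs and MHs. Gadd45b ran from -0.03 (without control SHPC replicate 3) to 0.18, from 0.33 to 0.63 and from -0.57 to -0.27 in these comparisons, and Gadd45g from 1.21 to 1.37, from 0.38 to 0.52 and from 0.77 to 0.93. The 10-spot Gadd45g probe, called by limma in none of the reported comparisons, was called between SHPC groups with all 8 samples in 1 fit, with an intensity trend and without control SHPC replicate 3 (0.0952%, 0.143% and 2.29% of all probes called), and against MHs with an intensity trend (0.563%); as the family was proposed with results known, these calls are a description and nothing is read from them.

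List genes called between SHPC groups were 2 higher (Tp53inp1 and Gdf15) without scaling and with an intensity trend, fits that called 0.922% and 0.143% of all probes. With 1 sample left out they were 0 to 2, in fits that called 0% to 2.29% of all probes. The methods' t-test called 9 higher and 6 lower there before adjustment and 0 after it. The share of all probes it called before adjustment was not computed. By limma 16.6% of all probes had an unadjusted p under 0.05, so nothing is read from the unadjusted counts. Between MHs and controls, genes called higher (reported: 1) were 3 with an intensity trend (Mdm2 and Phlda3 added), in a fit that called 2.42% of all probes. They were 0 with quantile normalization (alone or with normexp on 7 arrays), no filter, outlier spots kept or the slide set as a block. Genes called lower (reported: 4) were 2 without scaling, without a filter and with only both groups in the fit, where 1.07%, 0.298% and 1.25% of all probes were called in either direction. Left-out samples gave 0 higher and 1 to 5 lower, in fits that called 0.238% to 1.25% of all probes. The methods' t-test called 10 higher and 7 lower before adjustment, where limma's unadjusted share of all probes was 19.2%, and 0 and 0 after it. Genes called higher with BM-MCs than in MHs (reported: 2) were 1 with median scaling, where 0.216% of all probes were called. They were 0 with quantile normalization (alone or with normexp on 7 arrays), no filter, only both groups in the fit or the slide set as a block. With 1 sample left out they were 0 to 2, in fits that called 0% to 0.498% of all probes. The methods' t-test called 5 higher and 3 lower before adjustment, where limma's unadjusted share of all probes was 13.3%, and 0 and 0 after it. The cause was not tested.

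The labels number replicates in each group. Same-numbered control and BM-MC samples correlated in their deviations at 0.133, 0.078 and 0.171 over probes, not all above 0.1, so the numbers were not taken to pair samples. With the replicate block the Gadd45g difference between SHPC groups was 1.28, and genes called between MHs and controls were 0 higher and 2 lower, and 0 higher between SHPCs with BM-MCs and MHs. The number of arrays per group, and signal over background for the genes too dim to test, limit these comparisons.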
